A study of Rattus norvegicus with 6 samples.

Results

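The isoforms of protein kinase C are grouped by how the kinase is switched on, and 8 of their genes are described here: the conventional isoforms Prkca and Prkcb, the calcium-independent isoforms Prkcd, Prkce, Prkch and Prkcq, and the atypical isoforms Prkci and Prkcz. They were picked by symbol from the 17066 genes in the expression table of a study of cyclin Y (CCNY) in neurons. The choice of the family was made on a readout, the fall of Prkca in the CCNY-shRNA libraries against the EGFP libraries, and the question was whether its relatives fell with it or rose instead. The differences of Prkca in the CCNY-shRNA libraries are therefore given as descriptions without a test. RNA was taken from primary hippocampal neurons of Sprague-Dawley rat embryos at embryonic day 18. All cultures were infected with lentivirus at day 5 or 6 in vitro and lysed at day 14, so lentiviral infection and EGFP are shared by all 3 conditions: EGFP alone (control), CCNY-WT-EGFP (overexpression, here CCNY-WT) and CCNY-shRNA-EGFP (knockdown, here CCNY-shRNA). Each condition has 2 libraries of poly-A RNA from whole lysates, and nothing in the labels says that they came from separate cultures, so p-values may measure technical spread alone. The labels name no hairpin for the EGFP group.

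Protein kinase C phosphorylates serine and threonine residues and is a main effector of receptors that act through Gq and phospholipase C. Phospholipase C cleaves a membrane lipid into diacylglycerol and inositol trisphosphate; conventional isoforms need diacylglycerol and calcium, the calcium-independent class needs diacylglycerol alone, and atypical isoforms need neither and are steered by protein partners such as the Par complex. In hippocampal neurons the family is known for its part in long-term potentiation, receptor trafficking and transmitter release, and the brain makes from the Prkcz gene a short, constantly active form called PKMζ.

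The knockdown and the overexpression were visible in Ccny itself. In FPKM, mapped fragments scaled by transcript length and library size, it was measured at 43.1 and 42.3 with EGFP, 108 and 109 with CCNY-WT and 5.98 and 6.19 with CCNY-shRNA. The table cannot tell the transcript of the lentiviral insert from the endogenous one. Neuron markers were high in every library, with summed levels of 12 genes between 3597 and 3726 FPKM, while summed microglia markers stayed at or under 0.389 FPKM with Cx3cr1 and Aif1 at 0 throughout. Astrocyte markers were also present, summing to 372 to 387 FPKM with EGFP, 389 to 398 with CCNY-WT and 307 to 377 with CCNY-shRNA. Vascular and meningeal markers, mainly Lum and Dcn, summed to 64.2 to 72.3 FPKM with EGFP, 74.4 to 75.1 with CCNY-WT and 63.3 to 66.6 with CCNY-shRNA. These are bulk libraries, in which fewer cells of a type and less RNA per cell cannot be told apart. The depth relative to EGFP replicate 1, read from the steps of the lowest FPKM values, was between 0.818 (CCNY-shRNA replicate 1) and 1.33 (CCNY-WT replicate 1).

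In the EGFP libraries the levels of the isoforms were spread widely in FPKM, a unit that is per length and so allows different genes to be set side by side. Prkce (104 FPKM), Prkca (90.0), Prkcb (66.5), Prkcz (52.9) and Prkci (27.0) were the abundant isoforms, and Prkcq (3.31), Prkcd (1.25) and Prkch (0.533) were scarce. No neighbours in this order overlapped between their 2 libraries. In CCNY-WT and CCNY-shRNA the order was the same, and in CCNY-shRNA Prkcb and Prkcz overlapped.

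The promoters of 3 of the abundant isoforms are printed here to set Prkca, which chose the family, beside Prkce and Prkcz. Each of the latter had the highest level in its class, and their changes did not pass the test. The fall of Prkca itself was given no test. Each run is the 250 bases before the annotated start, 5′ to 3′ on the strand of the gene, from the RefSeq annotation of GRCr8, a later build than the rn4 used for the expression values. Capitals mark matches on either strand to the GC box GGGCGG or the CCAAT box CCAAT; neighbouring or overlapping matches run together.

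Prkca, chr10:93787328-93787577, minus strand: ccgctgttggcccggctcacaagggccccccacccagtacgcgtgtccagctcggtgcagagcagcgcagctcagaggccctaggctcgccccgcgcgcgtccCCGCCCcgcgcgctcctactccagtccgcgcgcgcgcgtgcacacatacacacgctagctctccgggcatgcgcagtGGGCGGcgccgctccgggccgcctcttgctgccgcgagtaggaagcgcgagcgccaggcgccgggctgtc
Prkce, chr6:14204289-14204538, minus strand: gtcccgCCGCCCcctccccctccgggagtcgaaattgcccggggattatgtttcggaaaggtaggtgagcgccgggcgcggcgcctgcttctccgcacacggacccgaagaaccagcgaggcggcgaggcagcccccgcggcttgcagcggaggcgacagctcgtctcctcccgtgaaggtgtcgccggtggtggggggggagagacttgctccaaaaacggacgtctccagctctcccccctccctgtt
Prkcz, chr5:171212675-171212924, minus strand: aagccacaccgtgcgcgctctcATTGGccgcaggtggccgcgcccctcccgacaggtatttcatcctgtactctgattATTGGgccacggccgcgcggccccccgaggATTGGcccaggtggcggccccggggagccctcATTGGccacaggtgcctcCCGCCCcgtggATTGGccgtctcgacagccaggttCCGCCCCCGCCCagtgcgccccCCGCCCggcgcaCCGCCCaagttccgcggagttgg

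The 3 windows were rich in G and C, at 74.8% for Prkca, 68.8% for Prkce and 72% for Prkcz, against a median of 52% over 27455 rat promoters of the same length. Prkca held 2 GC boxes, Prkce held 1 and Prkcz held 5, and at least 1 is found in 32.4% of all these promoters. The CCAAT box was found 5 times in the Prkcz window and not in the other two, against a share of 34.3% of all promoters with at least 1. Neither the cyclic AMP response element TGACGTCA (1.70% of all promoters) nor the E box CACGTG (5.79%) was found in these 3 windows. A match is a description of the letters only. Of the 8 isoforms, 6 were matched in the promoter table. The windows of Prkcd, Prkcq and Prkci, not printed here, held 5, 1 and 2 GC boxes and 0 CCAAT boxes.

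Among the conventional isoforms, Prkca stood at 90.0 and 90.0 FPKM with EGFP, 82.9 and 87.0 with CCNY-WT and 62.5 and 59.9 with CCNY-shRNA. Both CCNY-shRNA libraries lay below the other 4, and the pairs of libraries within each condition were close together. The mean was 90.0 FPKM in EGFP and 61.2 in CCNY-shRNA, a log2 difference of -0.56, or 32.0% lower. Against CCNY-WT the log2 difference was -0.47. These are the values that chose the family and they support nothing further. The encoded kinase, PKCα, is the isoform that binds the scaffold PICK1 and is known for phosphorylating AMPA receptor subunits. In CCNY-WT, Prkca was 0.08 lower than in EGFP on the log2 scale (95% interval -0.21 to 0.04, limma adjusted p = 0.813), a comparison that shares the EGFP libraries with the one that chose it. The study placed Prkca in its own lists of genes lowered by the knockdown, which were drawn from these same libraries.

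**Figure D1:**
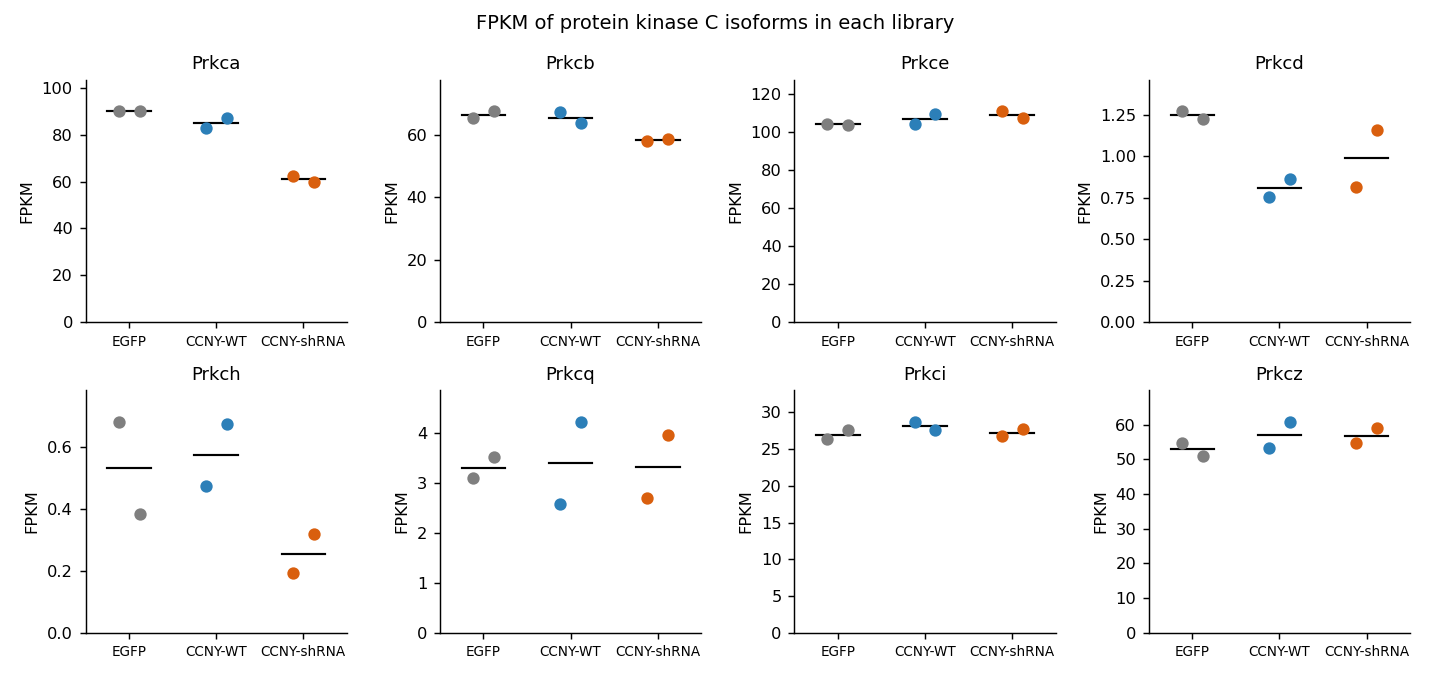
FPKM (linear axes starting at 0) of the 8 isoforms in each of the 6 libraries; points are libraries, side by side in the order of their replicate numbers, and the black line is the mean of a condition. The CCNY-shRNA points of Prkca, Prkcb and Prkch lie below all other points, while those of Prkcd, Prkci, Prkcq and Prkcz lie within the range of the other 4.

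Prkcb, whose splice forms PKCβI and PKCβII are both abundant in brain, was at 65.4 and 67.6 FPKM with EGFP, 67.5 and 63.7 with CCNY-WT and 57.9 and 58.6 with CCNY-shRNA. As with Prkca, both CCNY-shRNA libraries were below the other 4, but by less. The log2 change against EGFP was -0.19 (SE 0.0577, 95% interval -0.32 to -0.06), with an unadjusted limma p of 0.0113 and an adjusted p of 0.149, so it did not pass the threshold of 0.05. Against CCNY-WT it was -0.17, with an unadjusted p of 0.0189 and an adjusted p of 0.318. Between CCNY-WT and EGFP the 2 pairs of libraries overlapped (log2 change -0.02, adjusted p = 0.968). Over 16 alternative settings the adjusted p of the knockdown change stayed between 0.146 and 0.469. The ratio of Prkca to Prkcb was 1.38 and 1.33 with EGFP, 1.23 and 1.37 with CCNY-WT and 1.08 and 1.02 with CCNY-shRNA.

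Of the calcium-independent isoforms, Prkce was the abundant one. It encodes PKCε, known in neurons for its place in nerve endings and its binding to actin, and was measured at 105 and 104 FPKM with EGFP, 105 and 110 with CCNY-WT and 111 and 108 with CCNY-shRNA. The 2 knockdown libraries were above both EGFP libraries and overlapped with CCNY-WT. The log2 change of 0.07 (SE 0.0531, 95% interval -0.05 to 0.19, limma adjusted p = 0.528) did not pass the test, and its interval corresponds to a change of -3.66% to 14.2%. In CCNY-WT it was 0.04 (adjusted p = 0.911).

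Prkcq encodes PKCθ, best known from T cell signalling, and had 3.10 and 3.51 FPKM with EGFP, 2.57 and 4.22 with CCNY-WT and 2.70 and 3.96 with CCNY-shRNA. The replicates within CCNY-WT and within CCNY-shRNA were further apart than the means of any 2 conditions. The log2 change on knockdown was -0.01 with an interval from -0.66 to 0.64 (adjusted p = 0.990), a range of -36.9% to 55.5%.

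Prkcd, which encodes PKCδ and is linked to apoptosis when cleaved by caspases, was near the floor of 1 FPKM: 1.27 and 1.23 with EGFP, 0.756 and 0.860 with CCNY-WT and 0.817 and 1.16 with CCNY-shRNA. Both EGFP libraries were the highest. It entered the test through them and CCNY-shRNA replicate 2, and the floor hides part of its differences. The floored log2 change was -0.32 in CCNY-WT (95% interval -0.81 to 0.17, adjusted p = 0.813) and -0.21 in CCNY-shRNA (-0.70 to 0.27, adjusted p = 0.638). With log2(FPKM + 0.1) in place of the floor the CCNY-WT difference was -0.57, with an adjusted p of 0.824. The study named Prkcd in a list of apoptosis genes lowered by the overexpression, again drawn from these libraries. The smallest whole numbers of fragments that fit its values were 19 and 20 with EGFP, 15 and 12 with CCNY-WT and 10 and 20 with CCNY-shRNA, so each value may rest on few fragments.

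Prkch, which encodes PKCη, was under 1 FPKM in every library and was the only isoform left out of the test. Its values were 0.682 and 0.385 with EGFP, 0.475 and 0.674 with CCNY-WT and 0.192 and 0.318 with CCNY-shRNA. Both knockdown libraries were the lowest, at smallest fitting fragment numbers of 3 and 7 against 13 and 8 with EGFP and 12 and 12 with CCNY-WT. No fold is given for values this close to single fragments.

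Neither atypical isoform passed the test. Prkci, which encodes PKCι and works with Par3 and Par6 in cell polarity, had 26.4 and 27.6 FPKM with EGFP, 28.7 and 27.6 with CCNY-WT and 26.8 and 27.7 with CCNY-shRNA. The knockdown pair overlapped with both other pairs, and the higher EGFP and the lower CCNY-WT library were equal to 3 digits. Its log2 change was 0.01 on knockdown (SE 0.0714, 95% interval -0.15 to 0.18, limma adjusted p = 0.944) and 0.06 on overexpression (adjusted p = 0.903).

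Prkcz was at 54.7 and 51.0 FPKM with EGFP, 53.1 and 60.7 with CCNY-WT and 54.6 and 59.0 with CCNY-shRNA. The conditions overlapped here as well. The log2 change was 0.10 in CCNY-shRNA (SE 0.0820, 95% interval -0.09 to 0.29, adjusted p = 0.540) and 0.10 in CCNY-WT (adjusted p = 0.847), and CCNY-shRNA differed from CCNY-WT by -0.0002. With a library left out, the change lay between 0.049 and 0.1592 in CCNY-shRNA and between 0.0076 (without CCNY-WT replicate 2) and 0.201 (without CCNY-WT replicate 1) in CCNY-WT. Full-length Prkcz and the transcript of PKMζ, which starts inside the gene, share 1 value per library and cannot be told apart.

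**Figure D2:**
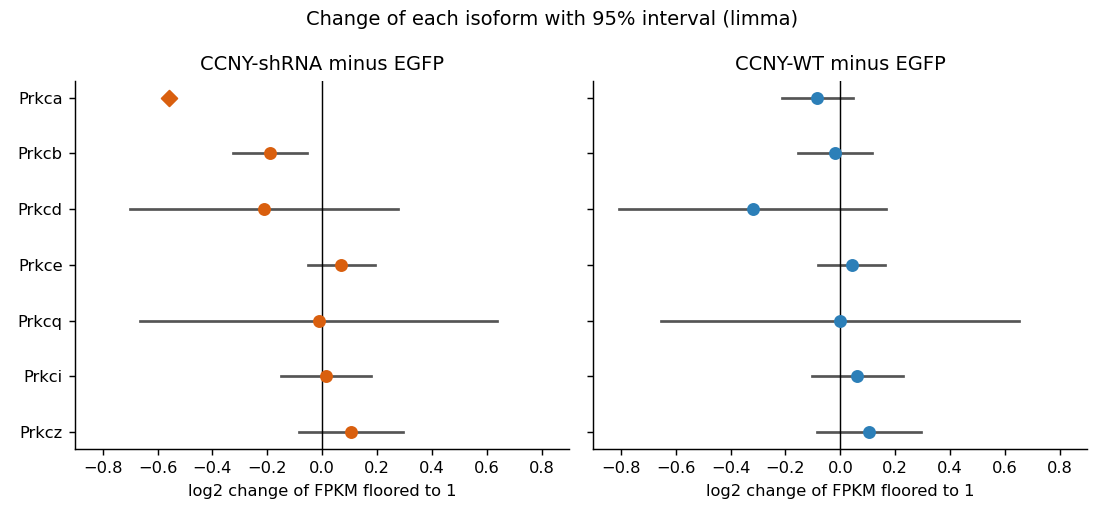
Log2 change of FPKM floored to 1 for the 7 tested isoforms, in CCNY-shRNA (left) and CCNY-WT (right) against EGFP; lines are 95% limma intervals over 2 libraries a condition, and Prkca on the left is a diamond without an interval because it chose the family. On the left only the interval of Prkcb lies wholly below 0, and on the right every interval spans 0.

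Counted over the family, 0 of the 6 isoforms tested besides Prkca passed the adjusted limma threshold on knockdown, where 0.746% of all 10188 genes did. At an unadjusted p under 0.05, 1 was lower (Prkcb) and 0 were higher, against 9.36% and 9.2% of all genes. Both CCNY-shRNA libraries lay below both EGFP libraries for Prkcb and Prkcd and above them for Prkce, against 24.5% and 23.9% of all genes tested, and Prkcd passed the filter partly because its EGFP libraries were high. At such shares a count of 1 or 2 among 6 genes is no result about the isoforms. In CCNY-WT against EGFP, 0 of 7 isoforms passed the adjusted threshold (0.00982% of all genes, which is Ccny alone), and 0 had an unadjusted p under 0.05, against 3% of genes lower and 3.83% higher. The 7 include Prkca, whose EGFP values were also part of the choice of the family. Between CCNY-shRNA and CCNY-WT, 0 of 6 passed the adjusted threshold (0.216% of all genes), while 1 was lower (Prkcb) and 0 were higher at an unadjusted p under 0.05, against 7.12% and 5.05%. The 3 comparisons share libraries in pairs and are not independent.

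The summed level of the 8 isoforms was 346 and 345 FPKM with EGFP, 341 and 355 with CCNY-WT and 317 and 318 with CCNY-shRNA. The mean knockdown sum differed from the control sum by -28.2 FPKM, or -8.16%. Prkca alone was 28.8 FPKM lower. Without it, the other 7 isoforms summed to 256 and 255 FPKM with EGFP, 258 and 268 with CCNY-WT and 254 and 258 with CCNY-shRNA. The knockdown pair enclosed the control pair, and the mean differed by 0.613 FPKM, or 0.24%.

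Within that near-equal sum, Prkcb was 8.21 FPKM lower while Prkce was 5.13 and Prkcz 3.96 FPKM higher, and of these 3 differences none passed the adjusted test. By class, the 2 conventional isoforms went from 156 to 119 FPKM (-23.7%), the calcium-independent ones from 109 to 114 FPKM (4.22%) and the atypical ones from 79.9 to 84.1 FPKM (5.28%). The conventional sum differed by -37.0 FPKM, of which 28.8 FPKM was the fall of Prkca that chose the family. The contrast between the classes was thus largely set by that choice, and no test is given for these sums.

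The share of Prkca in the sum of 8 was 26.0% and 26.1% with EGFP, 24.3% and 24.5% with CCNY-WT and 19.7% and 18.8% with CCNY-shRNA. The share of Prkce moved the other way, at 30.2% and 30.1% with EGFP, 30.7% and 31.0% with CCNY-WT and 35.1% and 33.8% with CCNY-shRNA. Since shares sum to a whole, a lower share of Prkca raises the others without a change in their levels. The ratio of Prkca to Prkce was 0.860 and 0.868 with EGFP, 0.792 and 0.793 with CCNY-WT and 0.563 and 0.557 with CCNY-shRNA.

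**Figure D3:**
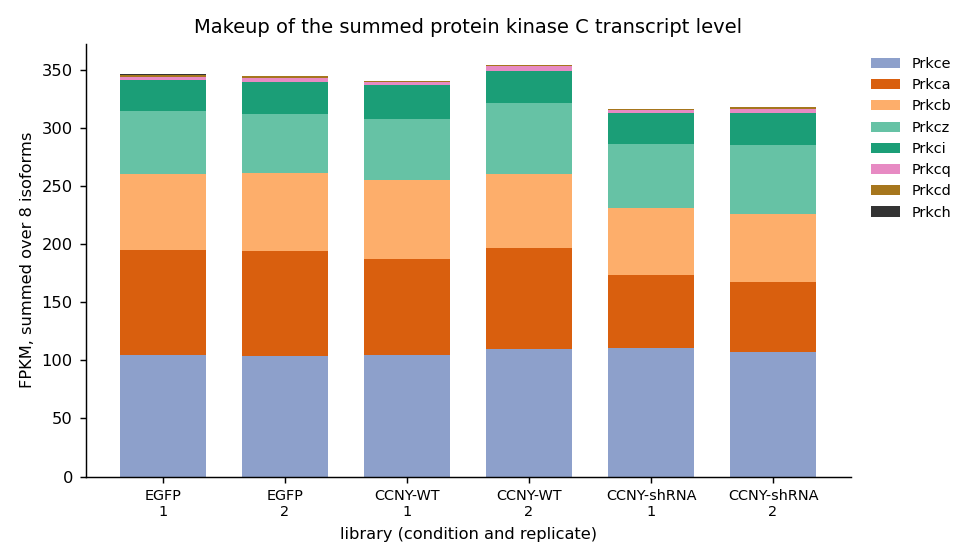
FPKM of the 8 isoforms stacked for each of the 6 libraries (linear axis from 0); each colour is an isoform. The 2 CCNY-shRNA bars reach 317 and 318 FPKM against 346 and 345 in EGFP, and the Prkca block is the one that is visibly thinner.

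Some cell type markers were also lower on knockdown. On knockdown, 1 of 12 neuron markers passed the adjusted limma threshold, Gad2 of inhibitory neurons (log2 change -0.41, adjusted p = 0.0226), beside 0.746% of all genes. Calls on knockdown depended on the fit. Over all genes 76 passed here, 1 passed without the trend of the limma fit and 1 with only the 2 groups compared. At an unadjusted p under 0.05 there were 4 lower (Gad2, Camk2a, Neurod6 and Syn1) and 1 higher (Tubb3), beside 9.36% and 9.2% of all genes. The median log2 change over the 12 was -0.12, against 0 over all genes tested. By log2 change, 9 of the 12 were lower and 3 were higher, with values from -0.41 to 0.16. Slc17a7, the vesicular glutamate transporter of excitatory neurons, had 0.02. Of 6 astrocyte markers, 2 were lower at an unadjusted p under 0.05, beside 9.36% of all genes. They were Slc1a2 (-0.32, adjusted p = 0.0768) and Slc1a3 (-0.24, adjusted p = 0.183). Among the 6, 4 had a negative log2 change and 2, Aqp4 and S100b, a positive one, with values from -0.32 to 0.04. Summed oligodendrocyte lineage markers were at 37.2 to 40.3 FPKM in CCNY-shRNA against 44.2 to 44.5 in EGFP. The part of these shifts in the isoforms' values was not tested.

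The 5 related kinases bind diacylglycerol or small GTPases. The protein kinase D genes were scarce: Prkd1 had 1.56 and 1.31 FPKM with EGFP, 0.933 and 1.40 with CCNY-WT and 1.19 and 1.13 with CCNY-shRNA, and Prkd2 and Prkd3 stayed between 0.804 and 2.77 FPKM. The 3 conditions overlapped for Prkd2, while both CCNY-shRNA libraries of Prkd3 lay below both CCNY-WT libraries. Against EGFP, both CCNY-shRNA libraries lay below for Prkd1 and above for Pkn2, beside 24.5% and 23.9% of all genes tested. Those of Pkn2 also lay above both CCNY-WT libraries. For separation from CCNY-WT no share over all genes is given. Pkn2 lay between 5.56 and 6.43 FPKM and Pkn3 between 8.81 and 9.92. Of the 5 related kinases 0 passed the adjusted threshold in any of the 3 comparisons.

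Around the kinases, 7 lists of pathway genes, the related kinases among them, held 78 genes, of which 62 were tested. On knockdown, 1 of the 62 passed the adjusted threshold and it was lower, against 0.746% of all genes, and at an unadjusted p under 0.05 there were 8 lower and 4 higher, beside 9.36% and 9.2% of all genes. The median log2 change was -0.06, against 0 over all genes tested. In CCNY-WT 0 of 62 passed, with 2 higher and 0 lower at an unadjusted p under 0.05, beside 3.83% and 3% of all genes. Between CCNY-shRNA and CCNY-WT, 1 passed and it was lower, beside 0.216% of all genes. At an unadjusted p under 0.05 there were 6 lower and 0 higher, beside 7.12% and 5.05% of all genes. This comparison shares the CCNY-shRNA libraries with the one against EGFP.

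The gene that passed in both was Rasgrp2, a calcium- and diacylglycerol-regulated exchange factor that activates Rap GTPases. Its level was 15.3 and 15.1 FPKM with EGFP, 14.7 and 15.7 with CCNY-WT and 8.72 and 9.39 with CCNY-shRNA, so that the knockdown pair stood well apart from the other 4. The log2 change against EGFP was -0.75 (SE 0.102, limma adjusted p = 0.0321) and against CCNY-WT -0.75 (adjusted p = 0.0419). Both calls depended on the fit, and were lost when any single library was left out, with no filter, without the trend or with only the 2 groups fitted. Against EGFP the adjusted p reached 0.248 at most, while the log2 change stayed between -0.80 and -0.69. Among the other receptors of diacylglycerol, Rasgrp1, the exchange factor for Ras, had a log2 change of -0.20 (adjusted p = 0.239) and Chn2, a Rac-inactivating protein, 0.24 (adjusted p = 0.161). Unc13a, which primes synaptic vesicles, was listed at 0 in all libraries, and whether its transcript was truly absent cannot be told from these values.

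Upstream, 0 of 12 tested genes of the Gq and phospholipase C list passed the adjusted threshold. Plcd1, a phospholipase C responsive to calcium, had 2.79 and 2.62 FPKM with EGFP, 2.64 and 2.09 with CCNY-WT and 1.51 and 1.41 with CCNY-shRNA, with a log2 change on knockdown of -0.89 (SE 0.199, adjusted p = 0.0830). The inositol trisphosphate receptor gene Itpr1 had -0.22 (adjusted p = 0.217), and Gna11, a Gq-class subunit, 0.23 (adjusted p = 0.145). Of 9 genes that remove diacylglycerol, 0 passed. Dgke, a diacylglycerol kinase, was at 21.6 and 22.8 FPKM with EGFP, 22.1 and 20.9 with CCNY-WT and 15.4 and 16.5 with CCNY-shRNA. Its knockdown libraries did not overlap with the others, and its log2 change of -0.48 had an adjusted p of 0.0577, just outside the threshold, and between 0.0476 and 0.306 over the alternatives. Dagla, the lipase that turns diacylglycerol into an endocannabinoid, had -0.17 (adjusted p = 0.222).

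Downstream and beside the kinases, 0 of 10 tested anchors and regulators passed. Sqstm1, whose product p62 binds the atypical isoforms, had the lowest unadjusted p among them, with 291 and 297 FPKM with EGFP, 336 and 326 with CCNY-WT and 371 and 329 with CCNY-shRNA. The 4 libraries of CCNY-WT and CCNY-shRNA were above both EGFP libraries, and the log2 change on knockdown was 0.25 (adjusted p = 0.120). Of 7 tested polarity partners of the atypical isoforms, 0 passed and 0 had an unadjusted p under 0.05 in any comparison. Among 14 tested neuronal substrates 0 passed. Marcks, the classic actin-binding substrate, had -0.21 (adjusted p = 0.187), the AMPA receptor subunit gene Gria2 had -0.18 (adjusted p = 0.219), and Gap43, of the growth cone, had 0.22 (adjusted p = 0.205).

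**Figure D4:**
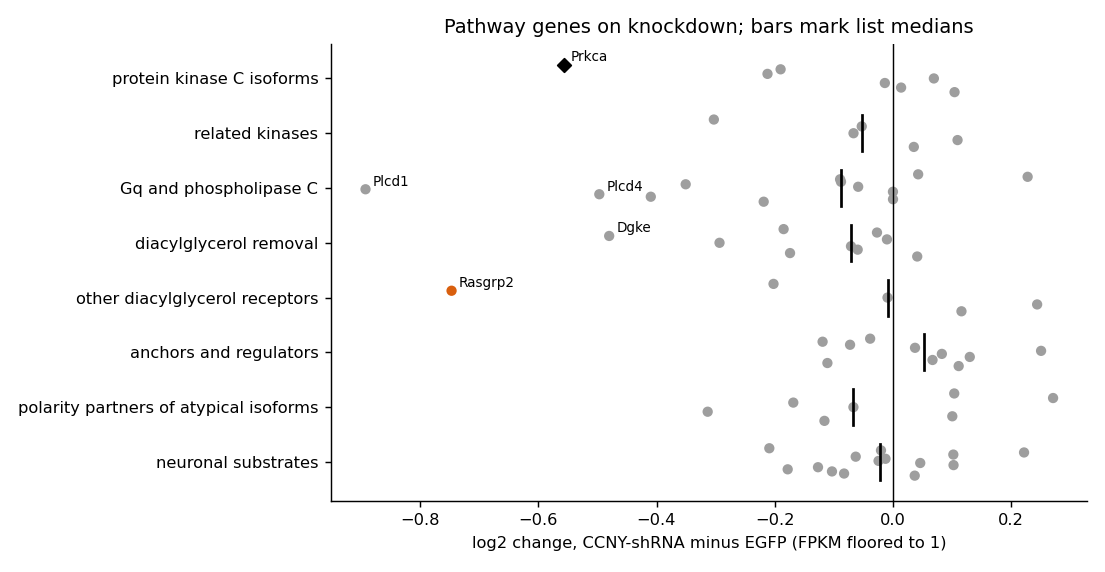
Log2 change in CCNY-shRNA against EGFP (FPKM floored to 1) for each tested isoform and each tested gene of the 7 pathway lists; points are genes, black bars are list medians, the black diamond is Prkca, which chose the family, and the orange point is the gene past an adjusted limma p of 0.05, Rasgrp2 at -0.75. Most points lie within 0.3 of 0.

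The genes whose profile over the 6 libraries was nearest to that of Prkca, by the Euclidean distance of log2 FPKM centred on each gene's mean and among 6572 tested genes with a mean of at least 10 FPKM, were Cacna2d3 (distance 0.130), Tmem185a (0.138), Nap1l3 (0.140), Slc35e2b (0.145) and Cd24 (0.145). Cacna2d3, an auxiliary subunit of voltage-gated calcium channels, had 66.7 and 72.0 FPKM with EGFP, 62.4 and 63.4 with CCNY-WT and 48.0 and 48.2 with CCNY-shRNA. Like Prkca, each of the 5 was lowest in the CCNY-shRNA libraries. This likeness was measured on the values that chose Prkca. No other isoform was among the 5 genes, which with 5 taken from 6572 is no result about the isoforms. Prkcd, Prkch and Prkcq had means under 10 FPKM and could not be among them.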

How the data were processed

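The authors aligned 150-bp paired-end reads to rn4 with TopHat2 and computed gene-level FPKM with Cufflinks; the submitters' processing notes list TopHat2 2.0, Bowtie2 2.1.0, SAMtools 0.1.19 and Cufflinks 2.2.1. The deposited table holds 1 FPKM value per gene and library for 6 libraries, with no read counts. The labels name the stranded version of the TruSeq kit and the study's methods name the kit without that word; whether strand was used is not given in the sources used here. Values under 1 were set to 1 before taking log2. Conditions were compared with limma 3.58.1 in R 4.3.3 (lmFit, contrasts.fit and eBayes, trend included), which fitted the 6 libraries together for the 10188 genes that reached 1 FPKM in at least 2 of them. Benjamini-Hochberg adjustment ran over all genes tested, and 0.05 was the threshold. The script was tested on simulated data. Tables were handled with Python 3.11.15 and pandas 2.3.3.

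The isoforms, the gene lists and the tests were chosen with earlier results of these data known. Named are all isoforms and related kinases, Ccny, pathway genes past the adjusted threshold, per list at most the 2 largest rises and the 2 largest falls on knockdown at an unadjusted p under 0.05, and the 5 genes nearest to Prkca; cell type markers, Pick1's product and Unc13a were named beside this rule after their values were seen. Relative depth was read from genes whose highest FPKM was under 0.5. Of the 427 of them that were above 0 in every library, 95.8% gave whole numbers of fragments in the libraries within a tolerance of 0.05. These numbers are the smallest that fit, and the true ones can be larger. Alternatives covered the offset, the filter, the scaling, the trend, the groups in the fit, a replicate block and leaving out each library. Plch2, Dgkd, Dgkh, Rictor, Wwc1 and Aldh1l1 were not analysed here. The values of 2 other genes of these lists are not reported here, and the list counts leave them out.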

Additional observations from a re-analysis of the deposited data

How the results depend on the processing

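Of the isoforms tested, leaving out Prkca in both comparisons with CCNY-shRNA, 0 passed the adjusted threshold under any of the 16 alternatives. Prkca, given there without a test, kept a log2 difference of -0.59 to -0.53 on knockdown. With 2 libraries a condition the fits have few residual degrees of freedom, and how far depth limits the values of the scarce isoforms was not tested. Changes near 0 turned sign. Prkcq did so with quantile normalization (0.0523 on knockdown and 0.0808 between CCNY-shRNA and CCNY-WT), and in CCNY-WT with log2(FPKM + 1) (0.0061) and upper quartile scaling (0.004). Prkcz between CCNY-shRNA and CCNY-WT turned with upper quartile (0.0048) and median ratio scaling (0.0022). With each library left out in turn, the log2 changes ranged from -0.0617 to 0.022 for Prkcb in CCNY-WT, from -0.0063 to 0.0622 for Prkce between CCNY-shRNA and CCNY-WT, from -0.0196 to 0.047 for Prkci on knockdown and from -0.097 to 0.0965 for Prkcz between CCNY-shRNA and CCNY-WT. They ranged from -0.3192 to -0.1054 for Prkcd and from 0.0454 to 0.0929 for Prkce on knockdown, and in CCNY-WT from -0.1188 to -0.0491 for Prkca, from 0.0069 to 0.0754 for Prkce and from 0.0279 to 0.0944 for Prkci. For Prkcq they ranged from -0.2921 to 0.2645 on knockdown, from -0.3583 to 0.3549 in CCNY-WT and from -0.3687 to 0.3445 between CCNY-shRNA and CCNY-WT. The summed isoforms differed by -7.469% with upper quartile scaling and by -8.855% with quantile normalization on knockdown, and in CCNY-WT by -1.43% to 2.59% with a library left out, being negative without CCNY-WT replicate 2. For these turns the cause was not tested.

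Of the pathway genes on knockdown, 2 passed (Rasgrp2 and Dgke) with log2(FPKM + 0.1) and with a filter on mean FPKM, and 0 passed with no filter, without the trend, with only the 2 groups compared or with any library left out. Over all genes, 76 passed on knockdown, against 108 with the filter on mean FPKM, 16 with no filter, 1 without the trend, 1 with only the 2 groups compared, and 1 to 86 with a library left out. Between CCNY-shRNA and CCNY-WT, 22 passed against 1 to 32 over the alternatives.

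Same-numbered libraries deviated together with r = 0.151 for CCNY-WT and CCNY-shRNA, 0.240 for CCNY-WT and EGFP and -0.0447 for CCNY-shRNA and EGFP over 6572 genes, so the numbers were not taken to pair the libraries. With a replicate block, 39 genes passed on knockdown, 1 in CCNY-WT and 18 between CCNY-shRNA and CCNY-WT, and the adjusted p of Prkcb on knockdown was 0.177. Under the block Rasgrp2 passed against EGFP (adjusted p = 0.0455) and no longer against CCNY-WT.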
